A study of Mus musculus with 6 samples.

Results

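Satb1, Ikzf1, Bach2 and Fli1 encode transcription factors that shape the fate of lymphocytes, and they are described here in mouse CD8+ T cells after a short exposure to daunorubicin (DNR). DNR, a drug used against leukaemia, inserts itself between the bases of DNA and traps topoisomerase II on it. The 4 genes were chosen by name, with earlier results of these data known. Every listed transcript whose RefSeq accession belongs to 1 of them was taken. That gave 6 transcripts among the 1037 in the deposited table, and 4 genes among the 847 that could be named.

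The cells were wild-type primary CD8+ T cells from mouse spleen, kept in culture and treated for 2 h with DNR or with the solvent dimethyl sulfoxide (DMSO). Each group has 3 samples, which the labels call biological replicates with no word on whether separate mice were used. A p-value here measures only the spread between these samples, which may be technical. In a study of the drug's effect on T cell activation, the comparison asks which transcripts differ between DNR and DMSO. The columns coded O were read as DMSO and those coded D as DNR, from the column names alone, and every direction below rests on that reading.

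Satb1 is a chromatin organiser that binds AT-rich DNA and helps to set the gene programme of developing and naive T cells. Ikaros, the product of Ikzf1, is a zinc finger factor that works with the NuRD chromatin remodelling complex and is required for lymphocyte development. Bach2 is a repressor that competes with AP-1 for its sites and holds CD8+ T cells back from terminal effector differentiation. Fli1 belongs to the ETS family, whose members recognise a GGAA core, and it too restrains effector differentiation of CD8+ T cells.

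Levels are given in FPKM, which counts fragments relative to transcript length and to the size of the library. A change is the difference of the group means, DNR minus DMSO, of log2(FPKM + 1). This scale makes the ratio between the groups look smaller for low transcripts than it is in FPKM. Only transcripts at 1 FPKM or more in at least 3 samples were tested. Of the 388 tested, 387 passed the threshold of 0.05 on the adjusted p (99.7%; limma), and the groups did not overlap in 99.7%. The table is named as the matrix of a heatmap of these groups, so its transcripts had probably been selected for a difference between these same samples. All 4 tested transcripts of Satb1, Ikzf1 and Fli1 passed. Against that background the count says nothing particular about these genes, and what follows is their direction, size and level. Samples of 1 group correlated at 0.989 to 0.993 across the tested transcripts and samples of different groups at 0.897 to 0.907. The depth of the libraries is unknown, because FPKM carry no totals of reads. In bulk RNA, fewer cells of a type and less RNA per cell cannot be told apart.

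The cell type label could not be checked in this table, because 0 of the 11 fixed marker genes of CD8+ T cells, such as Cd8a and Cd3e, are listed in it. Nor are genes from the marker lists of CD4 T cells, natural killer cells, neutrophils, and erythroid cells and platelets. Of 9 monocyte and macrophage markers only Csf1r is listed, at 58.5 to 63.2 FPKM with DMSO against 69.6 to 79.1 with DNR. Of 8 B cell markers, Spib and Ebf1 are listed, with a summed level of 0 to 2.27 FPKM with DMSO against 1.88 to 5.97 with DNR. Of 5 dendritic cell markers only Itgax is listed, at a sum of 0.96 to 1.23 FPKM with DMSO against 1.14 to 1.51 with DNR. Csf1r rose with DNR, by 0.25 ± 0.06 (SE; limma, adjusted p = 0.0057). In the same samples, as deposited, the tested transcripts of Satb1 and Fli1 fell and that of Ikzf1 rose. The part of other cell types in the results below was not tested.

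As deposited, the tested transcripts of Fli1 and Satb1 fell, and that of Ikzf1 rose. The fall of the more abundant Satb1 transcript and the call on the Satb1 sum depended on scaling, as given below. The listed transcript of Bach2 was lower in every DNR sample than in any DMSO sample, at levels too low for the test. Of the 4 tested transcripts, 3 were lower and 1 was higher, where 56.7% of all tested transcripts were called lower and 43.0% higher. The median change was -0.30 over these 4 and -0.22 over all 388.

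To give the regulatory context of these genes, the bases upstream of an annotated start are shown for Satb1, whose 2 abundant transcripts fell, for Ikzf1, which went the other way, and for Bach2. They are the sense strand of the gene, 5′ to 3′, from RefSeq on GRCm38.p6. Capitals mark a GC box (GGGCGG or CCGCCC, the site of Sp1 family factors) or an ETS core (CCGGAA or TTCCGG, the kind of site that Fli1 and its relatives bind).
Satb1, chr17:51832673-51832897, minus strand: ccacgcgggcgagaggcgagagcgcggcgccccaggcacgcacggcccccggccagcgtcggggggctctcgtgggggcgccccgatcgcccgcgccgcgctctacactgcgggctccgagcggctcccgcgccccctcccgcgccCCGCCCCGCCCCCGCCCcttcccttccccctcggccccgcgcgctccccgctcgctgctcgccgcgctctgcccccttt
Ikzf1, chr11:11685675-11685924, plus strand: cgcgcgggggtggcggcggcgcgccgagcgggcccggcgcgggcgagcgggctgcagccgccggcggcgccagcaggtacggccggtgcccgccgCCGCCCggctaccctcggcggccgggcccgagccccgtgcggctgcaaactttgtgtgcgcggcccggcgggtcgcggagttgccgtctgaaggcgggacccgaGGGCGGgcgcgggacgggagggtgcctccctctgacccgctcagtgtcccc
Bach2, chr4:32417185-32417434, plus strand: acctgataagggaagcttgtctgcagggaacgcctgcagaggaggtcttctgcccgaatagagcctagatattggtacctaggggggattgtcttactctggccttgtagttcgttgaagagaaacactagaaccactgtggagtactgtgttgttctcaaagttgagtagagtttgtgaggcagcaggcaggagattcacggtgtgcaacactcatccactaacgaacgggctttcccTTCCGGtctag

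The Satb1 stretch ends at the base before the GENCODE start of the transcript that matches NM_009122, at position 51832672. It is 83.1% G and C and holds 3 GC boxes in 1 unbroken run. The Ikzf1 stretch is 82.0% G and C and holds 2. The Bach2 stretch is 50.4% G and C and holds an ETS core 11 bases before the start, and no GC box. That start, at 32417435, lies far inside the gene, which spans 32238413 to 32586109. The stretch is therefore not the 5′ end of Bach2. Over 32851 windows of 250 bases before annotated mouse starts, 32.7% held a GC box and 12.0% held the ETS core, counting both strands. These 3 stretches held neither TGGGAA, the core that Ikaros binds, nor TGCTGAG, a partial Maf recognition element of the kind bound by Bach2 with small Maf proteins, which stood in 21.6% and 6.21% of all windows. The table of windows has 5 for Satb1, 2 for Ikzf1 and 1 for Bach2. The Satb1 window shown is the one at the start of NM_009122, and the Ikzf1 window is the more upstream one. The other 4 Satb1 windows and the other Ikzf1 window held no GC box, and 1 of these Satb1 windows, chr17:51812055-51812304, held the Ikaros core. The listed transcripts of Ikzf1 and Bach2 are predicted models whose own starts were not used here, so these stretches are of the genes and may not be those of the listed transcripts.

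Satb1 (gene ID 20230) lies on chromosome 17 at 51736187 to 51833290, and 3 of its 15 RefSeq transcripts are in the table. NM_009122, a curated coding transcript, corresponds to a GENCODE transcript of 11 exons with 2292 coding bases. It stood at 31.2, 29.4 and 30.8 FPKM with DMSO, against 22.3, 16.0 and 21.2 FPKM with DNR. The groups did not overlap, the DMSO samples lay close together, and DNR replicate 2 was the lowest. Its mean fell from 30.4 ± 0.92 to 19.8 ± 3.34 FPKM (SD, n = 3), to 0.651 of the DMSO level. The change was -0.61 ± 0.12 (SE; 95% interval -0.88 to -0.34; limma, adjusted p = 0.0034). Among the 220 transcripts called lower it ranked 83rd by size, and no alternative setting ended the call.

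XM_006523926, a predicted model, was the most abundant listed transcript of Satb1. It stood at 81.6, 75.0 and 82.9 FPKM with DMSO, against 72.3, 68.0 and 70.3 FPKM with DNR. The lowest DMSO sample lay just above the highest DNR sample. The mean fell from 79.8 ± 4.27 to 70.2 ± 2.13 FPKM (SD, n = 3), a change of -0.18 ± 0.05 (SE; limma, adjusted p = 0.0075), which ranked 204th of the 220 falls. This fall depended on scaling: when the medians of the 6 samples were set equal, called median scaling below, the change was 0.0031 (limma, adjusted p = 0.961). The remaining transcript, NM_001357637, was at 0.85 FPKM in DMSO replicate 1 and is listed at 0 in the other 5 samples.

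Summed over its listed transcripts, Satb1 stood at 113.6, 104.4 and 113.7 FPKM with DMSO, against 94.6, 84.0 and 91.5 FPKM with DNR. Every DNR sum was below every DMSO sum, and replicate 2 was the lowest of each group. The mean sum fell from 110.5 ± 5.36 to 90.0 ± 5.41 FPKM (SD, n = 3), an 18.6% lower level, where the change was -0.29 ± 0.06 (SE; limma on gene sums, adjusted p = 0.0043). Among the 350 gene sums tested, 90.6% passed, 51.4% lower and 39.1% higher. The call on the Satb1 sum was lost with median scaling (-0.15; limma, adjusted p = 0.0543).

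The mean of NM_009122 was 34.9% lower in DNR and that of XM_006523926 12.0% lower, and the share of NM_009122 in the Satb1 sum was lower in each DNR sample than in any DMSO sample. This share was 27.4%, 28.2% and 27.1% in the DMSO samples and 23.5%, 19.1% and 23.1% in the DNR samples. Its mean was 27.6 ± 0.57% in DMSO and 21.9 ± 2.48% in DNR (SD, n = 3), a difference of -5.65 percentage points. XM_006523926 made up 72.2 ± 0.65% of the sum in DMSO and 78.1 ± 2.48% in DNR. Neither pair of groups overlapped. The exact permutation test gave p = 0.1 for each (two-sided; 0.15 after Benjamini-Hochberg adjustment over 3 shares), and 0.1 is the smallest p that 3 samples against 3 allow. Both shares are of 1 sum and move against each other by construction, and reads shared between transcripts of a gene are divided by estimation. The sum covers 3 of the 15 RefSeq transcripts of Satb1, and the level of the whole gene was not analysed here.

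**Figure D1:**
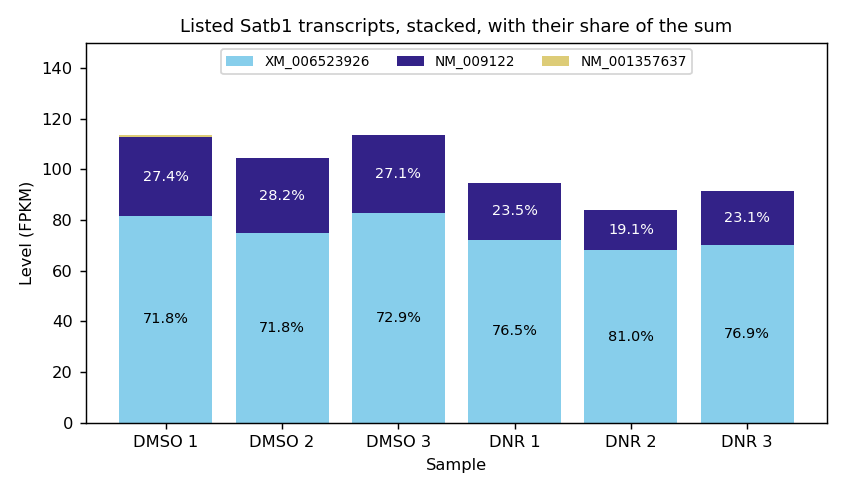
Stacked bars of the level in FPKM of the 3 listed Satb1 transcripts in each sample, with the share of the sum printed for the 2 abundant ones. All 3 DNR bars are shorter than the DMSO bars, and the dark segment, NM_009122, takes 19.1% to 23.5% of them against 27.1% to 28.2% in DMSO.

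Fli1 (gene ID 14247; chromosome 9, 32422204 to 32543432) has 4 RefSeq transcripts, of which NM_008026 is listed. It corresponds to a GENCODE transcript of 9 exons with 1356 coding bases. Its level was 60.1, 50.5 and 54.3 FPKM with DMSO, against 41.9, 39.2 and 41.1 FPKM with DNR. The groups were well apart, and here the DMSO samples were the more spread. The mean fell from 55.0 ± 4.87 to 40.7 ± 1.41 FPKM (SD, n = 3), to 0.741 of the DMSO level. The change was -0.42 ± 0.07 (SE; 95% interval -0.58 to -0.26; limma, adjusted p = 0.0019), close to the median of -0.45 of all transcripts called lower. With median scaling it was -0.24 (limma, adjusted p = 0.0124), so the fall of Fli1 passed under that scaling too, at a size reduced by over 1.5 times.

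Ikzf1 (gene ID 22778; chromosome 11, 11684962 to 11772930) went the other way. Of its 33 RefSeq transcripts, 1 predicted model, XM_030245954, is listed. It stood at 1.20, 1.74 and 1.74 FPKM with DMSO, against 4.50, 3.63 and 5.12 FPKM with DNR. The lowest DNR sample was above the highest DMSO sample by more than either group's SD. The mean rose from 1.56 ± 0.31 to 4.42 ± 0.75 FPKM (SD, n = 3), 2.83 times the DMSO level. The change was 1.08 ± 0.16 (SE; 95% interval 0.71 to 1.45; limma, adjusted p = 0.0014), and it ranked 38th of the 167 rises. The value describes 1 low transcript of a gene with many, and the level of the whole gene was not analysed here.

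Bach2 (gene ID 12014; chromosome 4, 32238413 to 32586109) is represented by XM_030253111, a predicted model and 1 of 12 RefSeq transcripts. It was at 0.71, 1.00 and 1.12 FPKM with DMSO, against 0.32, 0.30 and 0.20 FPKM with DNR. All DNR values were below all DMSO values. The groups were apart in this way, in either direction, in 5 of the 6 transcripts of these 4 genes and in 62.6% of all listed transcripts. Only 2 samples reached 1 FPKM, so the transcript was not tested. The means were 0.94 ± 0.21 and 0.27 ± 0.06 FPKM (SD, n = 3), a ratio of 0.290 and a difference of -0.61 on the log2(FPKM + 1) scale. Without a filter on low values, where 31.2% of all 1037 listed transcripts were called lower, it passed (limma, adjusted p = 0.0217). At this level a fraction of 1 FPKM separates the groups, and the number of reads behind it is unknown.

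**Figure D2:**
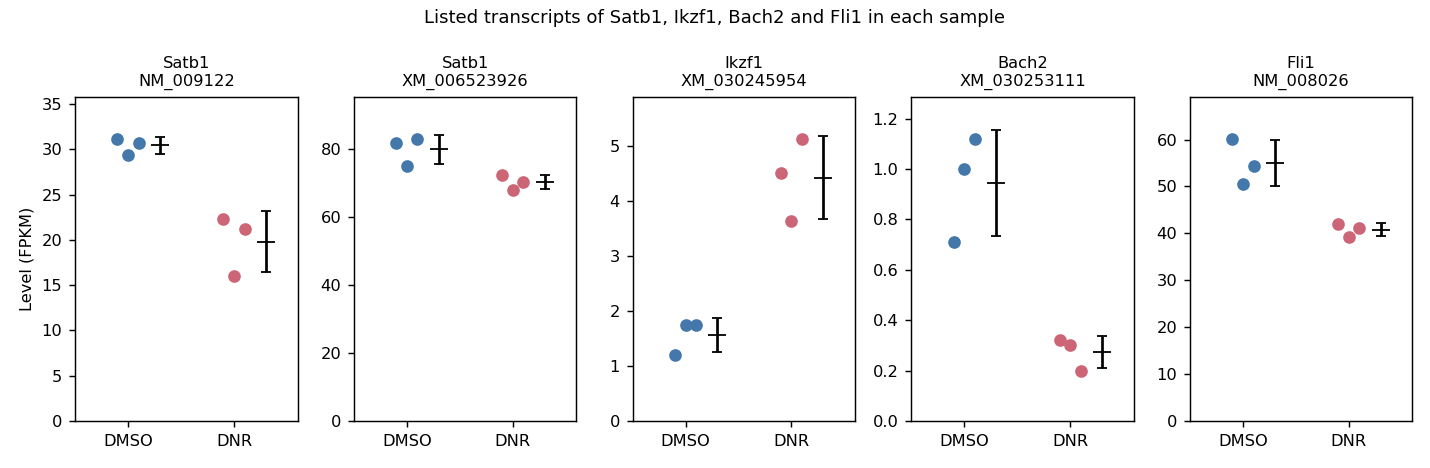
Level in FPKM (vertical axes from 0, scaled per panel) of 5 listed transcripts, with 1 point per sample and the mean ± SD of each group in black. The groups do not overlap in any panel: Ikzf1 is higher in DNR, and both Satb1 transcripts, Bach2 and Fli1 are lower. NM_001357637 of Satb1, whose groups overlap, is not drawn. The groups were likewise apart in 99.7% of all tested transcripts and in 62.6% of all listed ones.

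In order of level per length in DMSO, XM_006523926 of Satb1 came first, then Fli1, NM_009122 of Satb1, Ikzf1 and Bach2. The order was the same in DNR. In DMSO the closest neighbours were Ikzf1, whose lowest sample was at 1.20 FPKM, and Bach2, whose highest was at 1.12. In DNR these neighbours stood further apart, at 3.63 to 5.12 and 0.20 to 0.32 FPKM. By mean level over the 6 samples, XM_006523926 ranked 35th and Fli1 66th of the 388 tested transcripts, while Ikzf1 ranked 295th. The larger changes in FPKM ratio belong to the lower transcripts of these genes, Ikzf1 at 2.83 and Bach2 at 0.290.

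The 4 genes are long, from 88.0 kb for Ikzf1 and 97.1 kb for Satb1 to 121.2 kb for Fli1 and 347.7 kb for Bach2. Named genes with a transcript called lower had a median span of 68.0 kb and those with a transcript called higher 18.6 kb. Of the 100 tested transcripts of named genes at least as long as Ikzf1, 82 were lower, 17 were higher and 1 did not pass, where 56.7% of all tested transcripts were lower. Satb1 and Fli1 were among the 82 as deposited, and Ikzf1 was among the 17. In a breakdown chosen after seeing the data, median scaling gave 36 lower, 17 higher and 47 not called among these 100, with XM_006523926 of Satb1 no longer lower. Quantile normalization gave 59 lower, 17 higher and 24 not called. The part of gene length in these changes was not tested.

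**Figure D3:**
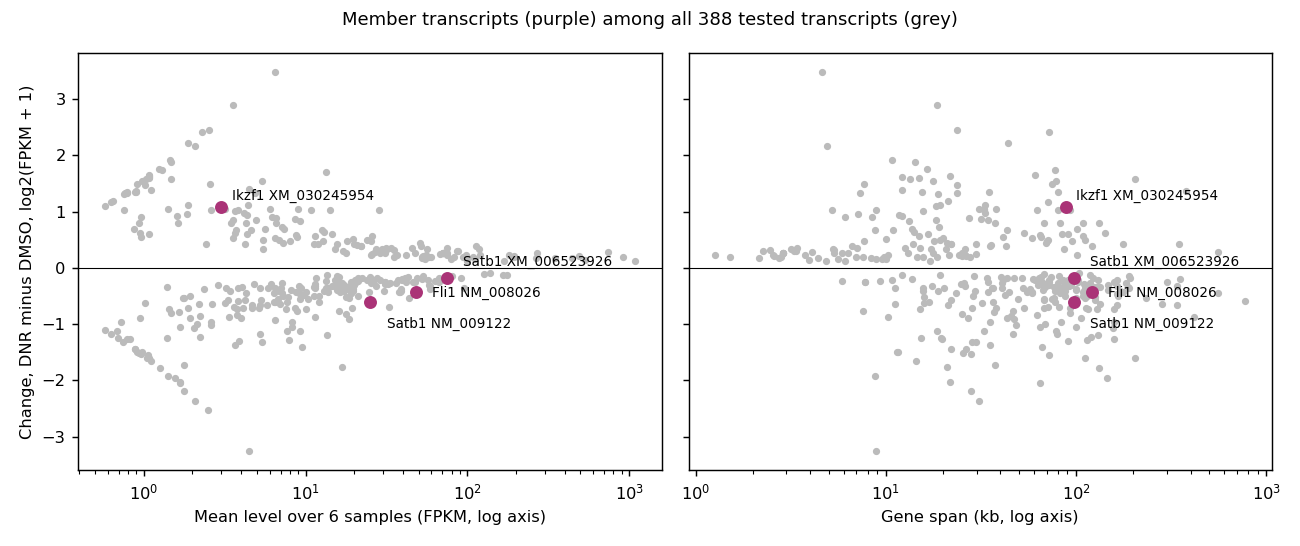
Change on the log2(FPKM + 1) scale of all 388 tested transcripts (grey), against their mean level in FPKM (left) and, for those with a matched gene, the span of the gene in kb (right), both on log axes. The 4 member transcripts are purple: Ikzf1 is a low transcript that rose by 1.08, and the Satb1 and Fli1 transcripts are abundant ones that fell by 0.18 to 0.61.

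Few relatives and partners of these factors are in the table. Of 129 other genes on the lists of related factors and chromatin partners, 22 are listed and 11 were tested. Among these 11 genes, each counted once, 8 were higher and 3 were lower as deposited. Of the 8, Chd4 and Ncor1 passed the filter on low values only through their DNR samples, which ties their direction to the filter. They are in every tally below and in the median of the 11. Of all tested transcripts, 43.0% were higher and 56.7% lower. The median change of the 11 was 0.23, against -0.22 for all tested transcripts. With median scaling, which raises the median change of all tested transcripts by 0.185, 8 of the 11 were higher and 3 did not pass. Of all 388 tested, that scaling gave 167 higher and 106 lower. With quantile normalization 6 of the 11 were higher, 3 were lower and 2 did not pass, against 149 higher and 171 lower of all 388. Whether the 11 genes differ from the rest of the table was not tested.

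The 4 other IKAROS family genes were not among the matched genes, and the listed transcripts of Cux1, a CUT domain gene like Satb1, were untested. In the ETS family of Fli1, Elf1 was the only tested relative among 17. It stood at 23.4, 22.3 and 23.9 FPKM with DMSO, against 29.1, 26.8 and 26.1 FPKM with DNR. Elf1 rose by 0.23 ± 0.06 (SE; limma, adjusted p = 0.0069), opposite in direction to Fli1, and its gene spans 101.3 kb. Low transcripts of Elf2, Gabpa and Spib were listed but untested.

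Among the bZIP genes around Bach2, Mafk, which encodes a small Maf partner, fell from 3.75 ± 0.35 to 2.69 ± 0.17 FPKM (SD, n = 3; change -0.36 ± 0.12 SE; limma, adjusted p = 0.0169). That call was lost with median scaling (limma, adjusted p = 0.229). The AP-1 genes Jun and Jund rose by 0.34 and 0.27. Bach1, Batf and the Fos genes of this list were not among the matched genes.

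Among the chromatin partners of Ikaros and Satb1, 1 transcript of Chd4, the ATPase of NuRD, was at 0, 0.17 and 0 FPKM with DMSO, against 1.69, 1.21 and 2.26 FPKM with DNR. Another Chd4 transcript had 1.26, 0 and 0.01 FPKM with DMSO and 0 listed for each DNR sample. The corepressor gene Ncor1 went from 0.54 ± 0.17 to 1.36 ± 0.32 FPKM in 1 low transcript (SD, n = 3). This Ncor1 transcript and the Chd4 transcript named first reached 1 FPKM only in DNR samples. They entered the test only through the group where they are high, so their calls are no evidence of a rise. Other partners were listed only in untested transcripts and were at 0 in every DNR sample. That of Mta1, another NuRD gene, had 2.76, 3.33 and 0 FPKM with DMSO. Of Sin3a, a corepressor scaffold gene, 1 transcript had 1.76, 1.42 and 0 FPKM with DMSO and the other 0, 0 and 2.37. All are low transcripts, like that of Ikzf1.

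The other lymphoid factors moved in both directions. Klf2, which maintains T cell quiescence, rose by 0.21, Klf6 by 0.16 and the orphan receptor gene Nr4a2 by 0.33, whereas Klf3 fell by 0.41 and Nfatc3, a factor downstream of the T cell receptor, fell by 0.26. The rises of Klf2 and Klf6 did not hold with quantile normalization, where their changes were 0.01 and -0.06 (limma, adjusted p = 0.719 and 0.0561). Under median scaling the falls of Klf3 and Nfatc3 were not called (limma, adjusted p = 0.0751 and 0.338). A transcript of Foxp1, another factor of naive T cells, was untested, with 0.32, 1.31 and 0.57 FPKM under DMSO and 0 listed for each DNR sample. A transcript of Irf2 had 0 listed for each DMSO sample and 0.98, 2.37 and 1.66 FPKM with DNR.

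**Figure D4:**
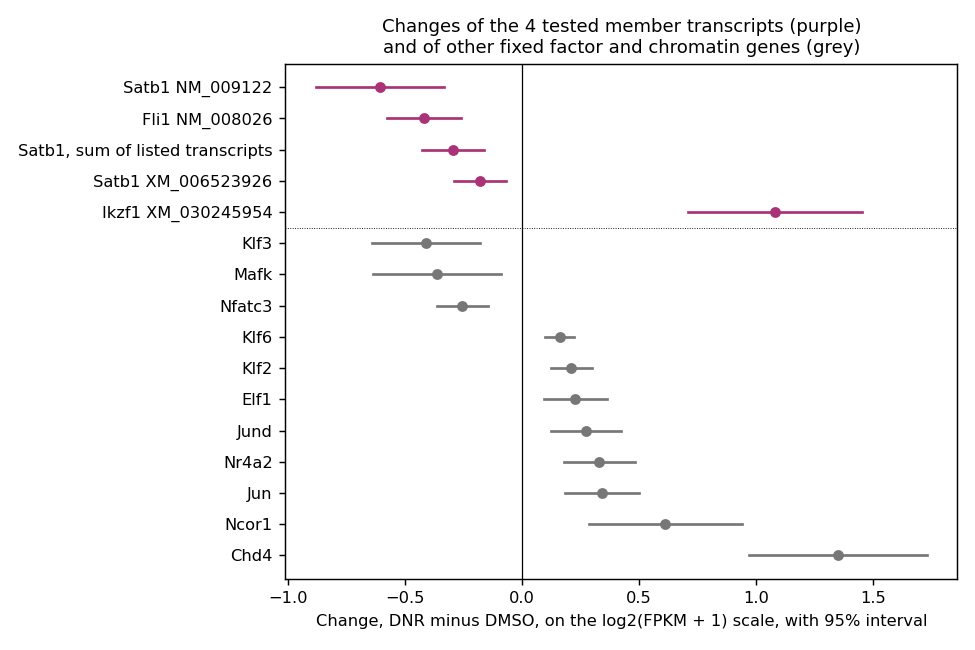
Change from DMSO to DNR on the log2(FPKM + 1) scale with its 95% interval (limma), for the 4 tested member transcripts and the Satb1 sum (purple, above the dotted line) and for the 11 other tested genes of the fixed lists (grey). Satb1 and Fli1 lie left of 0 with Klf3, Mafk and Nfatc3, and Ikzf1 lies right of 0, next in size to Chd4. As deposited, none of the intervals reaches 0, where 99.7% of all tested transcripts passed the threshold.

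For each tested transcript, the 2 transcripts of other genes with the closest pattern were sought among 371, by the root mean square difference of the log2 values over the 6 samples after centring. NM_009122 of Satb1 was closest to a transcript of Ppp1r16b, which encodes a regulatory subunit of protein phosphatase 1 (0.06). This transcript went from 52.3, 48.7 and 54.4 FPKM in DMSO to 38.7, 28.1 and 40.2 in DNR. It had the same dip in DNR replicate 2, a likeness for which it was picked. Another Ppp1r16b transcript, at a mean of 38.9 FPKM, changed by -0.38. The next closest to NM_009122 was Kmt2e (0.08), at 45.1, 37.3 and 40.1 FPKM with DMSO, against 29.8, 19.5 and 26.1 FPKM with DNR. XM_006523926 of Satb1 was closest to Heatr1 and Smchd1, at 0.025 and 0.033, and Fli1 to transcripts of Chst3 and Spred2, at 0.041 and 0.044. Spred2, an inhibitor of Ras signalling to MAP kinase, fell from 9.35 to 6.87 FPKM on average. The nearest to Ikzf1 were a transcript of Fpgt (0.11), from a mean of 0.37 to 1.56 FPKM, and 1 of the RNA-binding protein gene Raly (0.12), from 6.77 to 14.7 FPKM. That of Fpgt reached 1 FPKM only in DNR samples. These distances are larger, but the measure also grows with the spread between samples. The SE of the change was 0.16 for Ikzf1, 0.12 for NM_009122, 0.07 for Fli1 and 0.05 for XM_006523926. Since nearly every transcript in the table separates the 2 groups, a small difference here mostly shows a similar size of change.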

How the data were processed

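Total RNA was sequenced after library construction with a SMARTER mRNA kit, per the labels' protocols. The authors deposited 1 table of log2(FPKM + 1) values for 1037 transcripts in the 6 samples. The log2 scale was read from the deposited values: 2 to the power of each, minus 1, had 2 decimals in 100% of cells, within 1e-06 FPKM. Genome builds were GRCm38 and mm10, per the submitters' processing notes; aligner, quantification program and the rule of entry: not given in the sources used here. Unversioned accessions were looked up among the RefSeq genes of GRCm38.p6, and 1013 transcripts found a name. The deposited values were fitted over all 388 transcripts with at least 1 FPKM in 3 samples, with limma 3.58.1 in R 4.3.3 (trended eBayes, treatment alone, two-sided), with Benjamini-Hochberg adjustment over all tested. Gene sums were the summed FPKM of listed transcripts, fitted the same way. The fit was also run on simulated data. Those were not selected for a difference, as this table probably was, so that run gives no error rate for these calls.

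The members, the lists and the rule for named genes were chosen with earlier results of these data known. Named were all transcripts of the 4 genes, every tested gene of the fixed lists (up to 6 a list), and the 2 closest patterns to each tested transcript; untested genes of the lists are named with values after these were seen. The alternatives were other scalings, pseudocounts and filters, no trend, a replicate block and leaving out each sample. Same-numbered samples of the groups did not deviate together (r of -0.055, 0.046 and 0.043), so the block is an alternative.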

Additional observations from a re-analysis of the deposited data

How the results depend on the processing

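Of 89 refits of the changes of the 4 tested transcripts and 3 gene sums, 87 kept their direction and their side of the threshold. The sums of Ikzf1 and Fli1 each hold 1 listed transcript, so their refits largely repeat those of the transcript. The table was also probably selected for a difference between these same samples, so a kept call says little. With median scaling, the abundant Satb1 transcript XM_006523926 changed by 0.0031 and the Satb1 sum by -0.15 (limma, adjusted p = 0.961 and 0.0543), and transcripts called lower numbered 106 in place of 220, which leaves 61.2% of calls higher in place of 43.2%. With at least 5 FPKM in 3 samples fewer transcripts were tested, 111 were higher, and Ikzf1 could not be fitted. The Bach2 difference was -1.48 with a pseudocount of 0.1 in place of 1. Leaving out 1 sample gave -0.70 to -0.47 for NM_009122 of Satb1, -0.23 to -0.15 for XM_006523926, -0.48 to -0.35 for Fli1 and 0.97 to 1.19 for Ikzf1, with adjusted p by limma of at most 0.029. With a replicate block, 167 transcripts were higher and 218 lower, and the calls on Satb1, Ikzf1 and Fli1 were unchanged. Samples of the groups are linked in the labels only by a replicate number, and whether same-numbered samples share an origin is unknown. Median and quantile scaling were estimated on a table selected for differences. The scaling of whole libraries and their depth are unknown, and this limits the Satb1 result most.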
